A study of Mus musculus with 12 samples.

Results

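The blood cell miRNAs described here are 8 mature miRNAs cut from 5 hairpins: mmu-miR-144-3p, mmu-miR-144-5p and mmu-miR-451a of red cell precursors, mmu-miR-223-3p and mmu-miR-223-5p of myeloid cells, mmu-miR-142a-3p and mmu-miR-142a-5p of all white cells, and mmu-miR-150-5p of lymphocytes. They were chosen by name, for the blood lineage each is known from, at a time when earlier results of these data were known. They make up 8 of the 1966 mature miRNAs counted. All 8 had enough counts to be tested, among 809 miRNAs tested. Quadriceps muscles came from C57BL/6J mice, all wild type, at postnatal day 1 (P1), day 5 (P5), day 14 (P14) and day 90 (P90), with 3 libraries from separate mice at each age and 12 in all. The labels give no transgene and no treatment. Whether blood was flushed from the muscles is not given in the sources used here, and circulating cells and those resident in muscle cannot be told apart.

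A miRNA guides an Argonaute protein to messenger RNAs that pair with its seed, bases 2 to 8 counted from the 5′ end, and so lowers their translation and stability. miR-144 and miR-451a are made from a single primary transcript switched on by GATA1 in erythroid cells, and miR-451a is unusual in being trimmed by Ago2 without Dicer. miR-223 restrains granulocyte activation, miR-142 is made throughout the blood lineage, and miR-150 accumulates in mature B and T cells, where it targets Myb. Muscle fibres are not known as a main source of any of them, so in whole muscle these miRNAs are commonly read as coming from blood and immune cells. In bulk tissue, fewer cells of a type and less RNA per cell cannot be told apart.

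The mature sequences are shown because they set apart the members' targets and their base composition, on which part of the results below depends. They were taken from the RefSeq miRNA records of GRCm38.p6, in which 7 of the 8 members were matched, and are written 5′ to 3′ with the seed in capitals.
miR-144-5p: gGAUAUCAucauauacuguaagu
miR-144-3p: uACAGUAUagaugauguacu
miR-451a: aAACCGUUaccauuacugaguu
miR-142a-5p: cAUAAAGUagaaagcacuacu
miR-142a-3p: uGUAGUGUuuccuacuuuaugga
miR-223-5p: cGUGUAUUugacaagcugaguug
miR-223-3p: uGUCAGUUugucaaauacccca
The 7 seeds differ from one another, and no other mature sequence in the same table carried any of them. All 7 are poor in G and C: the share of these bases was 30.0% in miR-144-3p, 30.4% in miR-144-5p, 33.3% in miR-142a-5p, 34.8% in miR-142a-3p, 36.4% in miR-451a, 40.9% in miR-223-3p and 43.5% in miR-223-5p. The median over the 688 tested miRNAs with a sequence was 50%.

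miR-144 and miR-451a lie 99 bases apart on the plus strand of chromosome 11, the first at chr11:78073005-78073070 and the second at chr11:78073170-78073241 (GRCm38). Both hairpins fall in an exon of the long noncoding RNA gene Gm57805 in the GENCODE annotation, matched by name. They are printed with the mature arms in capitals, since the ratio between the products of these neighbours is one of the results.
Mir144: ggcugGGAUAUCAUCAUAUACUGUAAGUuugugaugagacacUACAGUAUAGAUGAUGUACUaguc
Mir451a: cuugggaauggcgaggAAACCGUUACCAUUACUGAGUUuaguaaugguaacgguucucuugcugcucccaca
The miR-142a hairpin lies at chr11:87756864-87756927 in an exon of Mir142hg, the miR-223 hairpin at chrX:96242817-96242926 in an exon of Mir223hg, and the miR-150 hairpin at chr7:45121757-45121821 within the long noncoding RNA gene Gm45552.

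The libraries held 20363495 to 53126984 counts, and the 8 members together made up 0.0163% to 0.129% of them. Levels are given as normalized CPM, counts scaled to a library of 1000000 after each library total was multiplied by its TMM factor (trimmed mean of M values). The factors were 1.24 to 1.72 from P1 to P14 and 0.247 to 0.384 at P90, where muscle miRNAs took up much of each library. As a result, the comparisons with P90 depend on the scaling, and the median tested miRNA itself was lower by a log2 fold change of -0.55 at P90 than at P14 and of -0.72 than at P1. The libraries also differed in how counts followed base composition: for each 10 percentage points of G and C, log2 levels relative to the mean over libraries changed by 0.38 to 0.56 at P14 and by -0.59 to -0.38 at P90, against -0.01 to 0.07 at P1 and P5. Libraries stood apart: the second P1 library was highest of all 12 in miR-223-3p and in the liver miRNA miR-122-5p, and the second P90 library was highest of all 12 in miR-451a. The quadriceps label was checked with 5 skeletal muscle miRNAs, all detected, whose summed level was 138971 to 274704 normalized CPM from P1 to P14 and 1450628 to 2370798 at P90. A factor below 1 shrinks the total by which counts are divided, so normalized CPM at P90 can sum to more than 1000000.

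Each member was tested across the 4 ages with edgeR's quasi-likelihood test, with p-values adjusted by the Benjamini-Hochberg method over all 809 miRNAs and a call at an adjusted p under 0.05. All 8 members differed among the ages, as did 72.4% of all miRNAs tested. Step by step, 1 member was higher and 2 were lower at P5 than at P1, where 2.72% and 1.73% of all tested miRNAs were called in those directions. From P5 to P14, 1 member rose and 5 fell, against 18% and 26.3% of all miRNAs. From P14 to P90, 7 members rose, as did 22.4% of all miRNAs, while 36.7% of all miRNAs fell. The remaining member, miR-223-5p, differed by a log2 fold change of 0.10 (edgeR adjusted p = 0.851). With library totals alone all 8 members were lower at P90 than at P14. With the trend over base composition removed 1 was called, miR-150-5p, which had no sequence and was not corrected, beside 444 of all 809 miRNAs. From P1 to P90 as a whole, 2 members rose and 3 fell, against 25.2% and 41.2%. The median log2 fold change of the 8 members was -0.35 from P1 to P5, -0.73 from P5 to P14 and 1.10 from P14 to P90, beside 0.01, -0.07 and -0.55 over all miRNAs tested. Successive comparisons share the libraries of an age, so the fall to P14 and the rise from it are not independent.

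**Figure D1:**
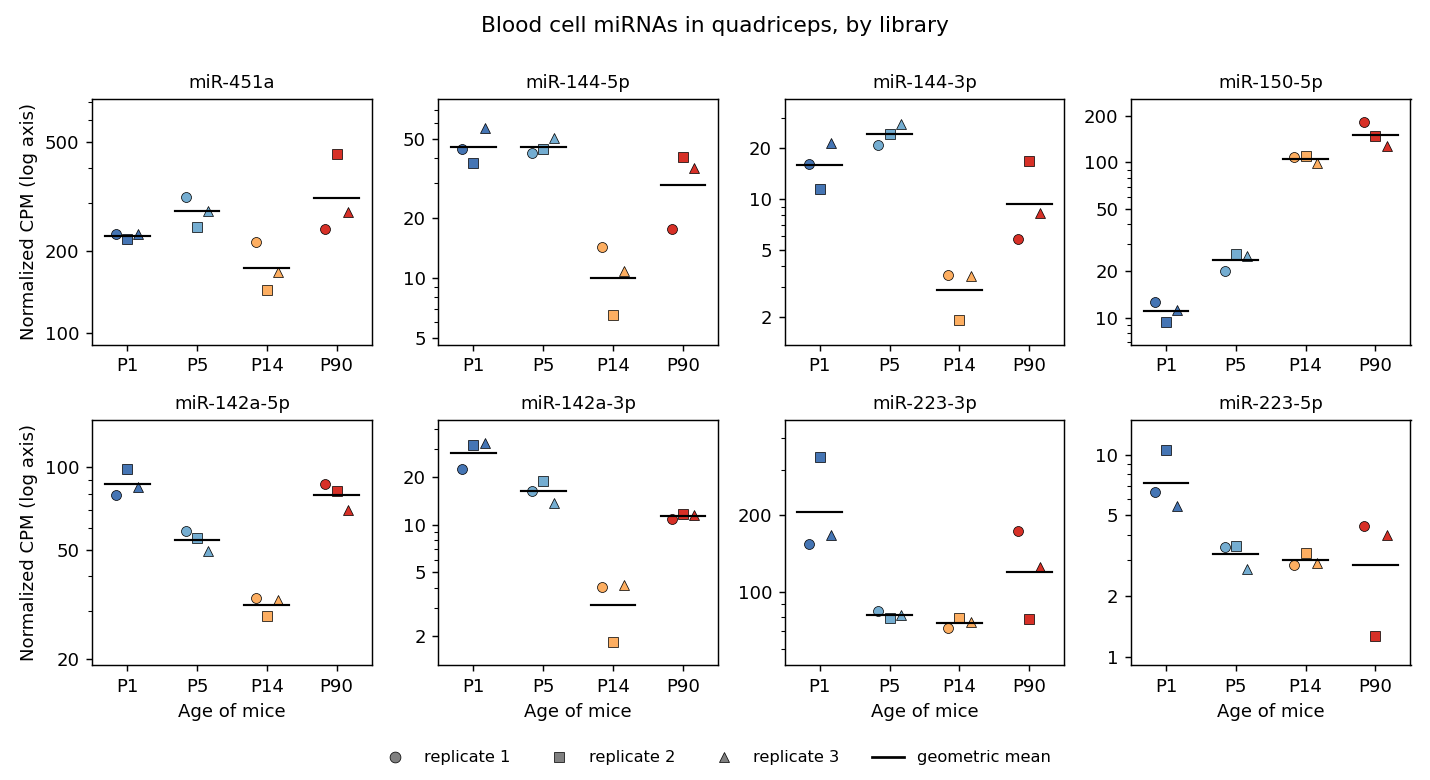
Normalized CPM of the 8 blood cell miRNAs in each quadriceps library, on log axes that differ between panels, by age of the mice. Symbols give the replicate number, which only names a library, and lines give the geometric mean of 3 libraries; miR-150-5p runs from 9.46 at P1 to 182 at P90, while the miR-144 arms and miR-142a-3p are lowest at P14.

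miR-150-5p, the lymphocyte miRNA, had the largest change of the 8 and a course of its own. Its normalized CPM was 12.7, 9.46 and 11.3 in the P1 libraries, 20.2, 25.7 and 25.2 at P5, 109, 109 and 99.8 at P14, and 182, 147 and 128 at P90. No library of one age overlapped with those of another, and the normalized CPM rose at each step. The log2 fold changes were 1.09 from P1 to P5 (SE 0.17, edgeR adjusted p = 0.00222), 2.16 from P5 to P14 (SE 0.18, adjusted p = 2.1e-07) and 0.53 from P14 to P90 (SE 0.17, adjusted p = 0.0151). Over the whole course the level rose 13.7-fold, a log2 fold change of 3.77 (SE 0.19, edgeR adjusted p = 4.3e-11, n = 3 per age). The rise from P1 to P90 was also called with library totals alone, at a log2 fold change of 1.56, and with upper-quartile factors, at 5.67. The first and the last step depended on the scaling. With library totals alone the first was 0.79 (edgeR adjusted p = 0.0766). For the last, with library totals alone miR-150-5p fell from P14 to P90 by 1.68 on the log2 scale (adjusted p = 1.4e-05 in edgeR), with miR-1a-3p and miR-1b-5p left out of the totals the difference was 0.25 (adjusted p = 0.25), and without the first P90 library it was 0.39 (adjusted p = 0.0688). Its other arm, miR-150-3p, was counted 21 to 201 times in a library and also rose from P1 to P90, by a log2 fold change of 1.90 (SE 0.39, edgeR adjusted p = 0.000484). As a share of library totals its mean was lower at P90, 0.699 CPM against 0.884 at P1, so that its direction turned with the scaling.

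miR-451a had the highest mean normalized CPM of the 8 at each age, and its age means varied the least. Its normalized CPM was 229, 221 and 229 at P1, 316, 245 and 280 at P5, 216, 144 and 168 at P14, and 240, 451 and 276 at P90. The P14 libraries lay below all others, and the second P90 library lay above the remaining 11. The level was lower at P14 than at P5 by 0.67 on the log2 scale (a log2 fold change of -0.67, SE 0.21, edgeR adjusted p = 0.018) and higher at P90 than at P14 by 0.87 (SE 0.21, adjusted p = 0.00236). The first of these differences was -0.61 without the first P5 library (edgeR adjusted p = 0.0569), -0.58 without the second P14 library (adjusted p = 0.0777) and -0.20 with the trend over base composition removed (adjusted p = 0.429). It was -0.41 with library totals alone (edgeR adjusted p = 0.212) and -0.39 with upper-quartile factors (adjusted p = 0.179). With that trend removed the second was -0.22 (edgeR adjusted p = 0.328). The excess of P90 over P1, a log2 fold change of 0.51 (SE 0.21, edgeR adjusted p = 0.0461), was 0.16 without the second P90 library (adjusted p = 0.426) and missed the threshold in 9 of the 12 fits that left out a library. As a share of all counts, miR-451a took 357 ± 20.6 CPM of the P1 libraries, 358 ± 51.0 of those at P5, 270 ± 48.5 of those at P14 and 107 ± 47.6 of those at P90 (SD, n = 3), so that its direction from P14 to P90 and from P1 to P90 turned with the scaling.

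Both arms of miR-144 dropped at P14 far more than miR-451a did. miR-144-5p stood at 44.1, 37.8 and 56.4 normalized CPM at P1, 42.1, 44.2 and 50.2 at P5, 14.3, 6.48 and 10.9 at P14, and 17.5, 40.5 and 35.5 at P90. miR-144-3p stood at 16.13, 11.4 and 21.4 normalized CPM at P1, 20.8, 24.3 and 27.7 at P5, 3.55, 1.92 and 3.49 at P14, and 5.77, 16.8 and 8.25 at P90. In both arms every P14 library lay below every library of the other ages. From P5 to P14, miR-144-5p fell 4.31-fold (log2 fold change -2.11, SE 0.31, edgeR adjusted p = 5.5e-05) and miR-144-3p fell 8.15-fold (-3.03, SE 0.37, adjusted p = 9.5e-06). These were called under every scaling tried and with the trend over base composition removed, where they came to -1.40 and -2.30. From P14 to P90 the arms rose by log2 fold changes of 1.56 (SE 0.31, edgeR adjusted p = 0.000417) and 1.79 (SE 0.37, adjusted p = 0.000546). With that trend removed, the changes from P14 to P90 were -0.09 and 0.09 and neither was called. Between P1 and P90 neither arm was called, at -0.57 (SE 0.30) and -0.66 (SE 0.35), but without the second P90 library both were lower at P90, at -0.84 (edgeR adjusted p = 0.0349) and -1.26 (adjusted p = 0.00327). Both were also called lower with the trend over base composition removed, at -1.55 (edgeR adjusted p = 3.5e-05) and -1.67 (adjusted p = 0.000102), with no filter, at -0.61 and -0.69, with library totals, at -2.86 and -2.90, and with miR-1a-3p and miR-1b-5p left out of the totals, at -1.03 and -1.10. With upper-quartile factors both were called higher, at 1.32 and 1.25.

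miR-142a, made in all white cells, also had its lowest levels at P14. miR-142a-5p stood at 79.1, 98.4 and 84.7 normalized CPM at P1, 58.6, 55.2 and 49.5 at P5, 33.3, 28.7 and 32.7 at P14, and 86.8, 81.8 and 70.1 at P90. The 4 ages did not overlap except P1 with P90. The level was lower at P5 than at P1 by 0.68 on the log2 scale (a log2 fold change of -0.68, SE 0.15, edgeR adjusted p = 0.021), lower at P14 than at P5 (-0.79, SE 0.15, adjusted p = 0.000665) and higher at P90 than at P14 (1.33, SE 0.16, adjusted p = 1.8e-06). The first of these steps missed the threshold without the second P1 library (-0.61, edgeR adjusted p = 0.14), the second P5 library (-0.69, adjusted p = 0.101) or the third P5 library (-0.63, adjusted p = 0.118). With the trend over base composition removed, the steps from P5 to P14 and from P14 to P90 were -0.18 and -0.02, and neither was called. With library totals alone the step from P5 to P14 was -0.52 (edgeR adjusted p = 0.084) and that from P14 to P90 was reversed, at -0.87. Between P1 and P90 the log2 fold change was -0.14 and was not called. It was called lower with that trend removed (-0.91, edgeR adjusted p = 0.000174) and with library totals alone (-2.38, adjusted p = 1.3e-07). The same held with miR-1a-3p and miR-1b-5p left out of the totals (-0.59, edgeR adjusted p = 0.00517). Upper-quartile factors gave a call in the other direction (1.76, edgeR adjusted p = 2.0e-07).

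miR-142a-3p stood at 22.3, 31.6 and 32.5 normalized CPM at P1, 16.3, 18.8 and 13.8 at P5, 4.02, 1.82 and 4.19 at P14, and 10.8, 11.7 and 11.49 at P90. No library of one age overlapped with another age, and the order from high to low was P1, P5, P90 and P14. The change from P5 to P14 was a 4.89-fold fall (log2 fold change -2.29, SE 0.28, edgeR adjusted p = 7.6e-06) and was called under every scaling tried, at -1.77 with the trend over base composition removed. The level at P90 was above that at P14 (1.77, SE 0.28, edgeR adjusted p = 4.4e-05) and below that at P1 (-1.34, SE 0.27, adjusted p = 0.000333). The difference from P14 to P90 was 0.57 with that trend removed (edgeR adjusted p = 0.063) and -0.44 with library totals alone (adjusted p = 0.159). The step from P1 to P5 did not pass (-0.82, SE 0.26, edgeR adjusted p = 0.0954). It was called with DESeq2 (DESeq2 adjusted p = 0.0257), with no filter (edgeR adjusted p = 0.013) and with the 2 ages only (edgeR adjusted p = 0.0298). Library totals alone and leaving out the second P14 library also gave a call. The replicate block and removal of the trend did not (edgeR adjusted p = 0.14 and 0.0502). The reads of this arm were counted a second time: miR-142b, annotated on the opposite strand with 20 overlapping bases, had 74 to 1365 counts and differed from miR-142a-3p by 0 to 5 counts in each library. The strand from which these reads came therefore cannot be told apart in these counts. miR-451b, opposite the miR-451a hairpin but with no overlap of the mature sequences, had 0 to 32 counts a library, at 0 in 2 P14 libraries, which allows up to 3 counts.

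miR-223 was highest at P1, and both arms had lower means at P5 and P14. miR-223-3p stood at 153, 335 and 167 normalized CPM at P1, 84.2, 79.0 and 81.5 at P5, 72.3, 79.1 and 75.9 at P14, and 174, 78.5 and 125 at P90. All P1 libraries lay above all P5 and P14 libraries, whose 6 values lay close together, and the P90 libraries ran from within the P14 values to within the P1 values. The level was 2.68-fold lower at P5 than at P1 (log2 fold change -1.42, SE 0.29, edgeR adjusted p = 0.014). Without the second P1 library this difference was -0.99 (adjusted p = 0.0725), without the second P5 library it was -1.40 (0.0596) and without the third P5 library -1.43 (edgeR adjusted p = 0.0701). P14 and P5 did not differ beyond their spread (-0.11, SE 0.28, edgeR adjusted p = 0.802). The calls that P90 was higher than P14 (0.73, SE 0.29, edgeR adjusted p = 0.0391) and lower than P1 (-0.80, SE 0.29, adjusted p = 0.022) rest on groups that overlap. The second was -0.39 without the second P1 library (edgeR adjusted p = 0.179), -0.56 without the second P90 library (adjusted p = 0.0989), -0.58 without the second P5 library (adjusted p = 0.0932) and -0.77 without the third P90 library (adjusted p = 0.0618). It was also lost with RLE factors (-0.46, edgeR adjusted p = 0.153), with DESeq2 (-0.46, DESeq2 adjusted p = 0.128) and with the 2 ages only (-0.68, edgeR adjusted p = 0.0877). It stayed called with the trend over base composition removed (-1.16, edgeR adjusted p = 0.00339) and turned to 1.09 with upper-quartile factors. The first missed the threshold in 5 of the 12 fits that left out a library, at 0.43 without the first P90 library, 0.80 without the third P90 library, and 0.73 to 0.77 without any 1 of the P14 libraries.

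miR-223-5p, the rarer arm, stood at 6.51, 10.6 and 5.57 normalized CPM at P1, 3.48, 3.52 and 2.73 at P5, 2.84, 3.28 and 2.90 at P14, and 4.46, 1.27 and 4.0 at P90. It rested on 24 to 459 counts a library. Of the 4 comparisons, the fall from P1 to P90 was the one called (log2 fold change -1.23, SE 0.38, edgeR adjusted p = 0.0089), and the groups did not overlap. The difference between P1 and P5 had a similar size (-1.22, SE 0.36) but an adjusted p of 0.0748 in edgeR. It was called with DESeq2 (DESeq2 adjusted p = 0.0147), with no filter (edgeR adjusted p = 0.00343) and with the 2 ages only (edgeR adjusted p = 0.0255). Library totals, with or without miR-1a-3p and miR-1b-5p, and leaving out the second P90 library also gave a call. The replicate block and removal of the trend over base composition did not (edgeR adjusted p = 0.12 and 0.0762). The fall from P1 to P90 stayed called in the 12 fits that left out a library, at -1.61 to -0.85. Without the second P1 and P90 libraries together, a choice made after seeing the data, it was -0.56 (edgeR adjusted p = 0.0996). Upper-quartile factors turned it to 0.64 (edgeR adjusted p = 0.143).

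**Figure D2:**
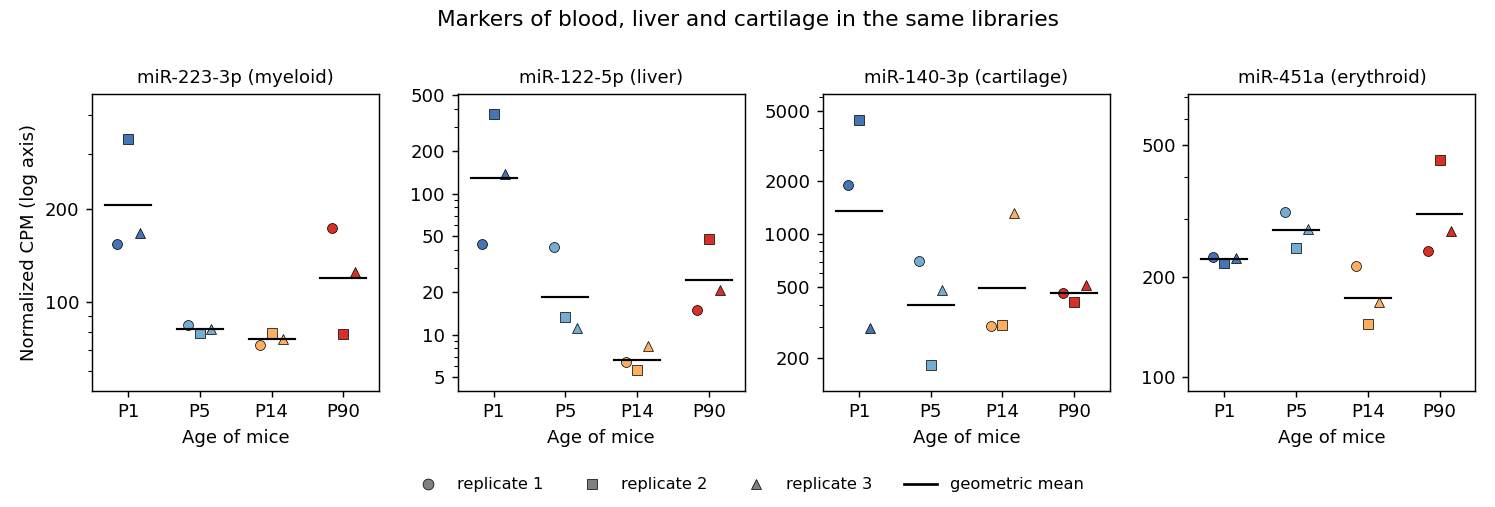
Normalized CPM of miR-223-3p, the liver miRNA miR-122-5p, the cartilage miRNA miR-140-3p and miR-451a in each quadriceps library, on log axes that differ between panels, by age. The second P1 library (square) is the highest of all 12 in every panel but the last, at 335, 366 and 4446, where the second P90 library (square) is the highest, at 451.

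Markers of other tissues moved with some of these values. The liver list held 1 miRNA, miR-122-5p, with 44.2 to 366 normalized CPM in the P1 group, 11.2 to 41.9 in the P5 group, 5.62 to 8.28 in the P14 group and 15.0 to 47.5 in the P90 group. Its P1 maximum fell in the second library, as that of miR-223-3p did, and its P90 maximum in the second library, as that of miR-451a and both miR-144 arms did. Both miRNAs of the cartilage list were detected, with a sum of 390 to 5142 normalized CPM in P1 libraries, 250 to 895 in P5, 350 to 1592 in P14 and 553 to 671 in P90 libraries, highest in the second P1 library. Both keratinocyte miRNAs were detected, with a sum of 125 to 279 normalized CPM in P1 libraries, 274 to 421 in P5, 59.5 to 128 in P14 and 125 to 392 in P90 libraries. Over all 12 libraries the 2 neuronal miRNAs summed to 84.9 to 342 normalized CPM, the 2 endothelial ones to 3353 to 12990 and the 2 smooth muscle ones to 16760 to 73287. None of these markers was at 0 throughout, and their part in the differences of the blood cell miRNAs was not tested.

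Ratios of counts within a library do not depend on the scaling but can still follow the trend over base composition. Tests of 9 such ratios covered all ways of dividing 12 libraries into 4 groups of 3. In these sums a miRNA written without an arm counts both arms. miR-451a exceeded miR-144 by 3.81, 4.49 and 2.95 times at P1, 5.01, 3.57 and 3.59 times at P5, 12.05, 17.2 and 11.7 times at P14, and 10.3, 7.87 and 6.32 times at P90. The ratio was lowest at P1 and P5, which overlapped, and highest at P14, and it was 1.68 times lower at P90 than at P14. P14 and P90 overlapped neither with each other nor with the younger ages. The ratio differed among ages (exact permutation p = 0.000455, adjusted over the 9 ratios 0.00136). With the trend over base composition removed the adjusted exact permutation p was 0.0117, which covers any difference among the 4 ages. From P14 to P90 the log2 fold changes with that trend removed were -0.22 for miR-451a, -0.09 for miR-144-5p and 0.09 for miR-144-3p. Whether the ratio was still lower at P90 than at P14 was then not tested by itself.

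The arms of miR-142a changed their proportion. miR-142a-5p exceeded miR-142a-3p by 3.55, 3.12 and 2.61 times at P1, 3.60, 2.93 and 3.60 times at P5, 8.26, 15.6 and 7.77 times at P14, and 7.997, 6.96 and 6.08 times at P90. Here too the younger and the older ages did not overlap (exact permutation p = 0.00104, adjusted 0.00187), and the arms differ little in base composition. miR-144-5p exceeded miR-144-3p by 2.74, 3.30 and 2.64 times at P1, 2.03, 1.82 and 1.81 times at P5, 4.03, 3.36 and 3.10 times at P14, and 3.03, 2.405 and 4.29 times at P90. This ratio was lowest at P5, where no library overlapped with another age (exact permutation p = 0.0151, adjusted 0.0226), but the adjusted p was 0.0635 without the second P5 library and 0.0592 without the third (exact permutation). miR-223-3p exceeded miR-223-5p by 22.3 to 31.6 times from P1 to P14 and by 38.7, 60.5 and 30.9 times at P90 (exact permutation p = 0.0308, adjusted 0.0347). This call was lost in 7 of the 12 repeats that left out a library. The adjusted exact permutation p was 0.116 without the second P90 library, where miR-223-5p had 24 counts, 0.065 without the third P1 library, 0.0687 and 0.0635 without the first and the second P5 library, and 0.0653, 0.0693 and 0.0625 without the first, the second and the third P14 library.

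Ratios between miRNAs known from different blood lineages were also compared among the ages. miR-150-5p relative to miR-142a rose from 0.125, 0.0729 and 0.0966 at P1 to 0.269, 0.347 and 0.398 at P5 and 2.91, 3.58 and 2.70 at P14, and stood at 1.87, 1.57 and 1.57 at P90. The ages did not overlap, and the highest ratios were at P14 and not at P90. As miR-150-5p had no sequence, this ratio was not repeated with the trend over base composition removed, which differed between P14 and P90. The ratio was 17.4 times higher at P90 than at P1, and its exact permutation p of 6.5e-05 is the smallest these divisions can give (adjusted 0.000292). The erythroid sum of miR-144 and miR-451a relative to miR-142a was 2.86, 2.08 and 2.62 at P1, 5.05, 4.24 and 5.65 at P5, 6.26, 5.01 and 4.94 at P14, and 2.70, 5.43 and 3.92 at P90 (exact permutation p = 0.0191, adjusted 0.0245). P1 lay below P5 and P14 without overlap, and the P90 libraries spanned both. miR-223 relative to miR-142a was 1.57, 2.66 and 1.47 at P1, 1.17, 1.12 and 1.33 at P5, 2.01, 2.70 and 2.13 at P14, and 1.82, 0.854 and 1.58 at P90. P5 lay below P1 and P14 without overlap, and P90 lay below P14, but the ratio did not pass (exact permutation p = 0.0867). This ratio did pass without the second P90 library, which was lowest at 0.854 (adjusted exact permutation p = 0.0484). It also passed without the second P1 and P90 libraries together, a choice made after seeing the data (adjusted exact permutation p = 0.00429).

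2 ratios set blood cell miRNAs against miR-126a, a miRNA of endothelial cells, and both were lower at P90 than at P1. The count ratio of miR-144 and miR-451a to miR-126a was 0.0663 to 0.0818 in P1 libraries, 0.0454 to 0.0758 in P5, 0.0205 to 0.0272 in P14 and 0.0247 to 0.0399 in P90 libraries (exact permutation p = 0.000779, adjusted 0.00175). miR-142a relative to miR-126a was 0.0232 to 0.0388 in P1 libraries, 0.0106 to 0.0150 in P5, 0.00410 to 0.00434 in P14 and 0.00629 to 0.0101 in P90 libraries (exact permutation p = 6.5e-05, the smallest possible, adjusted 0.000292). In the second of these no 2 ages overlapped, and it was lowest at P14 and 1.82 times higher at P90 than at P14, while in the first P1 overlapped with P5 and P14 with P90. Neither ratio was repeated with the trend over base composition removed, since not every arm in it had a sequence. miR-223 and miR-150-5p were not set against miR-126a. miR-126a-3p itself rose from P1 to P90 by a log2 fold change of 1.65 (SE 0.16, edgeR adjusted p = 1.3e-07) and miR-126a-5p by 1.33 (SE 0.21, adjusted p = 3.8e-05). As a share of library totals the direction was the opposite: miR-126a-3p went from a mean of 5453 CPM at P1 to 3535 at P90, and miR-126a-5p from 538 to 280.

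**Figure D3:**
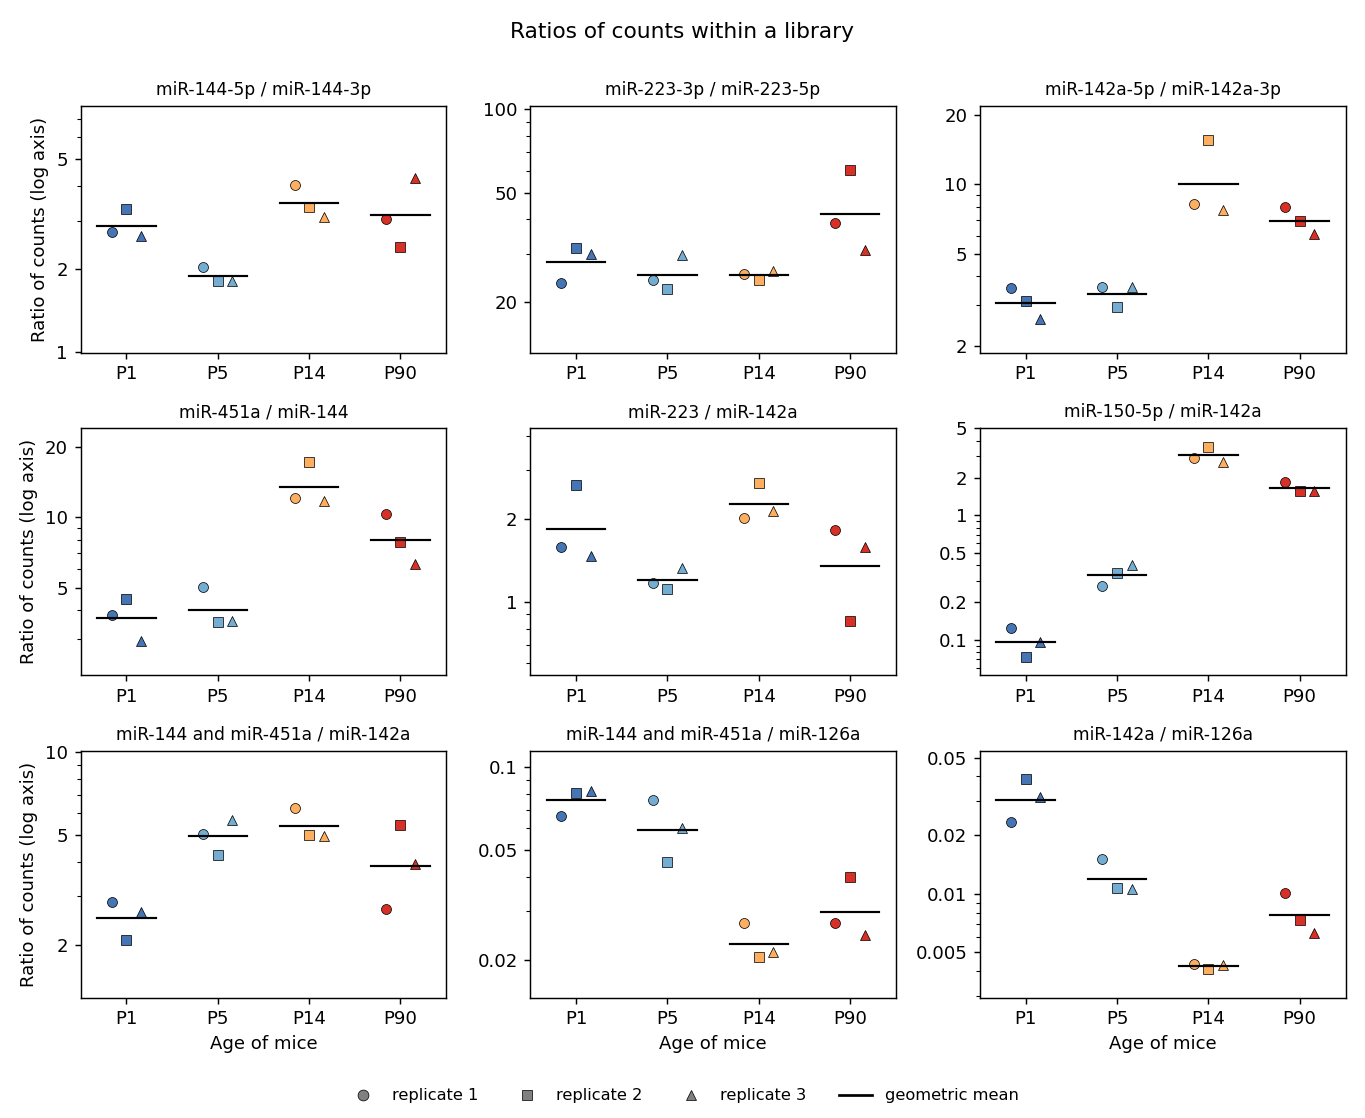
The 9 count ratios in each library, on log axes that differ between panels, by age. Symbols give the replicate number and lines the geometric mean of 3 libraries; miR-150-5p to miR-142a rises from 0.0729 at P1 to 3.58 at P14, and miR-451a to miR-144 stands at 2.95 to 5.01 at P1 and P5 and at 6.32 to 17.2 at P14 and P90.

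The scaling decided the direction of the change from P14 to P90. With library totals alone, all 8 members were lower at P90 than at P14, by log2 fold changes of -2.16 to -0.41, beside a median over all tested miRNAs of -2.77. With upper-quartile factors all 8 were higher, by 1.65 to 3.38, and the median was 0.99. Over all tested miRNAs, 181 were called higher and 297 lower at P90 than at P14 with TMM factors, 18 and 628 with library totals alone, and 382 and 159 with upper-quartile factors. A change of scaling shifts all miRNAs of a comparison nearly alike, so places relative to the median of all tested miRNAs had to stay nearly the same. The 5 scalings were TMM, RLE, upper quartile, library totals, and library totals without miR-1a-3p and miR-1b-5p. Over them miR-144-5p stood 2.02 to 2.14 and miR-142a-3p 2.24 to 2.36 above that median on the log2 scale. miR-451a stood 1.35 to 1.47 and miR-150-5p 1.00 to 1.12 above it. Removing each library's trend over base composition lowered these values for the members with a sequence, to 0.27 for miR-144-5p, 0.92 for miR-142a-3p and 0.14 for miR-451a, and 1 of the 8 members was then called between P14 and P90, miR-150-5p, which had no sequence and was not corrected. From P1 to P90, miR-150-5p stood 4.39 to 4.52 above the median over the 5 scalings and miR-451a 1.13 to 1.23, whereas miR-223-5p stood at -0.65 to -0.52. With the trend over base composition removed, miR-451a stood at 0.46 and miR-223-5p at -0.87, while miR-150-5p was not corrected.

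**Figure D4:**
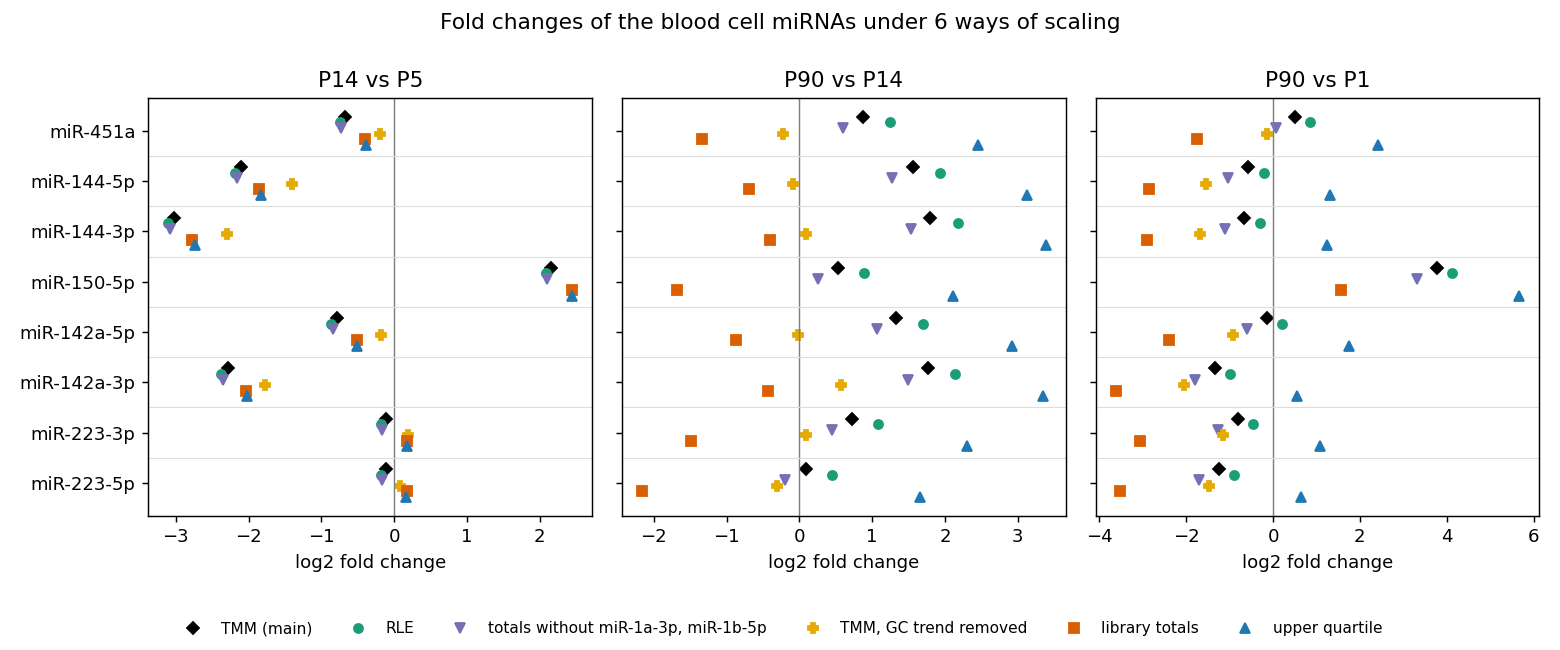
Log2 fold changes of the 8 miRNAs between ages under 6 ways of scaling the libraries, with 0 as a grey line. From P14 to P90 the values lie on both sides of 0 for each miRNA, from P5 to P14 those of both miR-144 arms and miR-142a-3p lie below 0 and those of miR-150-5p above it throughout; miR-150-5p has no value with the trend over base composition removed.

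Other miRNAs of blood cells did not share one course. The list of other erythroid miRNAs held 8 entries, all tested. From P5 to P14, 4 rose and the other 4 did not pass, where 18% of all tested miRNAs were called higher and 26.3% lower. From P1 to P90, 4 rose and 1 fell, against 25.2% and 41.2% of all miRNAs. The 4 that rose were the arms of miR-486a and miR-486b, which lie on opposite strands of one locus in Ank1 and are also made in muscle, at log2 fold changes of 2.66 to 2.73 from P1 to P90. They stand for 2 sets of counts and not 4, since miR-486a-5p differed from miR-486b-3p by at most 3 counts in any library and miR-486a-3p from miR-486b-5p by at most 39. The list of other leukocyte miRNAs held 11 entries, of which 9 were tested. From P1 to P90 5 of them rose and 3 fell, against the same 25.2% and 41.2% of all miRNAs. miR-155-5p, induced in activated lymphocytes and macrophages, rose by a log2 fold change of 3.06 (SE 0.21, edgeR adjusted p = 2.3e-09), from 8.5 to 12.2 normalized CPM at P1 to 68.3 to 100.3 at P90. miR-146a-5p, which restrains signalling through Toll-like receptors, rose by 1.63 (SE 0.20, edgeR adjusted p = 2.4e-06). The direction of most of these rises turned with library totals: of the 5 that rose, miR-155-5p had a higher mean share of the total at P90 than at P1 (26.2 against 15.6 CPM), while miR-146a-5p (74.7 against 112), miR-146b-5p (61.2 against 155), miR-511-5p (1.42 against 3.97) and miR-150-3p had a lower one. miR-342-3p, from an intron of Evl, fell by 2.05 on the log2 scale (SE 0.16, edgeR adjusted p = 8.4e-09), and the third of those that fell besides both miR-342 arms was miR-142b, which repeats the counts of miR-142a-3p. From P5 to P14, 4 of the 9 rose and 1 fell, against 18% and 26.3% of all miRNAs.

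The members fell into groups by their course over the 12 libraries, described here by Pearson's r of log2 normalized CPM, with libraries of one age sharing that age and its base composition trend. The arms of miR-144 had r = 0.96, those of miR-142a 0.86 and those of miR-223 0.85. miR-144-5p correlated with miR-142a-3p at 0.92 and with its neighbour miR-451a at 0.69. miR-150-5p had negative or near-zero values with all 7 others, from -0.73 with miR-142a-3p to -0.0014 with miR-451a. Among the tested miRNAs of other hairpins with a mean of at least 10 normalized CPM, those nearest to miR-150-5p were miR-378d (0.99), miR-193a-5p (0.99) and miR-151-5p (0.99). Nearest to miR-144-5p were miR-106b-5p (0.98), miR-872-5p (0.94) and miR-340-5p (0.94), and nearest to miR-142a-5p were miR-7a-5p (0.88), miR-340-5p (0.88) and miR-21a-5p (0.86). miR-451a was closest to miR-126a-5p, miR-126b-3p and miR-26b-5p (0.79 each), and miR-223-3p to miR-122-5p and its antisense miR-122b-3p (0.77 each), followed by miR-142a-5p (0.74). miR-122b-3p had the same mean and SD as miR-122-5p at each age. miR-126b-3p nearly repeated miR-126a-5p, with means of 345 and 344 normalized CPM at P1. Neither pair therefore gives separate neighbours.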

How the data were processed

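Small RNA libraries (NEXTflex kit) were made from total RNA of quadriceps. Per the labels and the methods of the study, the authors trimmed reads with cutadapt 1.18, aligned them to GRCm38 with Bowtie2 2.4.1 and counted them per mature miRNA of miRBase with featureCounts 2.0.1, with options on strand, multiple hits and overlaps not given in the sources used here. The deposited values are raw read counts. Libraries were grouped by the age in their labels, 3 per age. miRNAs were kept with filterByExpr of edgeR 4.0.16 (R 4.3.3), scaled with TMM factors and fitted over all 12 libraries with 1 mean per age, and ages were compared with the 2-sided quasi-likelihood F-test, adjusted by Benjamini-Hochberg over 809 miRNAs at a threshold of 0.05. 424 miRNAs had no count in any library. The study fitted all ages together with DESeq2 1.30.1.

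Ratios of counts (0.5 added to each sum) were tested by exact permutation of the between-age sum of squares of log2 ratios, adjusted over 9 ratios. Correlations used log2 normalized CPM with a prior count of 2. The trend over base composition was a straight line fitted per library to the 309 abundant miRNAs with a sequence. 85.0% of tested miRNAs had a sequence. The steps were tested on simulated data with known changes. Replicates of an age differed beyond sampling noise (chi-square per degree of freedom 105 to 750), so each counted as 1 sample. The replicate numbers did not pair the libraries. Counting intervals would cover counting error only.

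The members, the lists of other blood and tissue miRNAs and the tests were chosen with earlier results of these data known. Named miRNAs were the 8 members, the fixed lists of other blood cell and tissue miRNAs, the antisense miRNAs of member hairpins and, for the more abundant arm of each hairpin, the 3 miRNAs with the highest correlation. Alternatives were other scalings, no filter, DESeq2 1.42.0, the 2 ages alone, each library left out, a replicate block, the base composition trend removed, and later-named antisense miRNAs left out. Leaving out the second P1 and P90 libraries together was chosen after seeing the data.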

Additional observations from a re-analysis of the deposited data

How the results depend on the processing

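The count of members called among the 4 ages was 8, and 7 to 8 under all alternatives. From P1 to P5 it was 3, but 5 with no filter, with DESeq2 and with the 2 ages only, and 1 to 4 when a library was left out (1 without P1 replicate 2, P5 replicate 2 or P5 replicate 3). From P14 to P90 it was 7, but 1 with the base composition trend removed and 5 to 7 when a library was left out. With library totals alone all 8 members were lower in this comparison, so the calls there went the other way. From P1 to P90 it was 5, but 8 with library totals alone, 7 with the trend removed or with miR-1a-3p and miR-1b-5p left out of the totals, and 3 to 5 when a library was left out (3 without the second P1 library). From P5 to P14 it was 6 and stayed within 4 to 6. Without the second P1 and second P90 libraries together, a choice made after seeing the data, the counts were 2, 6, 7 and 4 for the 4 comparisons in order of age.

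Over all tested miRNAs, 36 were called from P1 to P5 (22 higher, 14 lower), against 81 with DESeq2, 62 with no filter, 15 with the replicate block, 8 to 51 when a library was left out, and 3 higher and 37 lower with library totals alone. From P5 to P14, 146 were higher and 213 lower, against 183 and 160 with library totals alone and 207 and 165 with upper-quartile factors. From P1 to P90, 204 were higher and 333 lower, against 36 and 647, and 391 and 192. With the base composition trend removed, 340 of the 809 were called from P5 to P14, 444 from P14 to P90 and 547 from P1 to P90. With miR-1a-3p and miR-1b-5p left out of the totals, 548 of 817 were called from P1 to P90. Without the second P1 library, 516 of 880 were.

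These log2 fold changes changed sign. From P1 to P5, miR-144-5p (-0.02) was 0.025 with RLE factors and with DESeq2, 0.015 with upper-quartile factors, and -0.16 to 0.14 when a library was left out. From P5 to P14, miR-223-5p and miR-223-3p (-0.11 each) were 0.18 and 0.17 with library totals alone, 0.16 and 0.17 with upper-quartile factors, and 0.078 and 0.19 with the trend removed. From P14 to P90 with library totals alone, the values were -0.69 for miR-144-5p, -0.41 for miR-144-3p, -1.34 for miR-451a, -2.16 for miR-223-5p, -1.49 for miR-223-3p, -0.87 for miR-142a-5p, -0.44 for miR-142a-3p and -1.68 for miR-150-5p. With the trend removed they were -0.086 for miR-144-5p, -0.22 for miR-451a, -0.31 for miR-223-5p and -0.019 for miR-142a-5p. miR-223-5p was -0.20 with library totals without miR-1a-3p and miR-1b-5p, and -0.23 to 0.52 when a library was left out. From P1 to P90 with upper-quartile factors, miR-144-5p was 1.32, miR-144-3p 1.25, miR-223-5p 0.64, miR-223-3p 1.09, miR-142a-5p 1.76 and miR-142a-3p 0.55. miR-451a was -1.74 with library totals alone and -0.14 with the trend removed. miR-142a-5p was 0.21 with RLE factors and with DESeq2, 0.00091 with the 2 ages only, and -0.23 to 0.10 when a library was left out. The scalings differ by the shift of the median that they set, and the cause of the other changes was not tested.

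Of the ratios, given as the log2 difference of P90 from P1, the arms of miR-144 (0.13) missed the threshold with the replicate block (0.13, adjusted exact permutation p = 0.0625) and ranged from -0.092 to 0.32 when a library was left out. The arms of miR-223 (0.57) missed it with the trend removed (0.43, 0.111), with the replicate block (0.57, 0.0625) and without both second libraries (0.39, 0.132), and ranged from 0.30 to 0.78 when a library was left out. miR-223 to miR-142a (-0.44) was 0.16 without both second libraries, where it passed (adjusted exact permutation p = 0.00429). It ranged from -0.66 to -0.11 when a library was left out. The erythroid sum to miR-142a missed the threshold with the replicate block (0.63, adjusted exact permutation p = 0.0801).

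Of the 18 pairs of libraries with the same replicate number, 1 had deviations correlated above 0.1 (r from -0.10 to 0.12), and 3 of 12 libraries correlated best with their own number, so the numbers do not pair the mice. With the replicate block, 3, 6, 6 and 4 members were called in the 4 comparisons, and miR-223-3p from P14 to P90 and miR-451a from P1 to P90 were lost (adjusted p = 0.0513 and 0.0648 in edgeR). With 3 libraries per age, counts of 24 to 75 for miR-223-5p at P90 limit precision.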
